A study of Mus musculus with 3 samples.

Results

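The ADAM, ADAMTS and ADAMTS-like genes were examined in Colon26, a mouse colon adenocarcinoma cell line, and in LuM1 and NM11, which were derived from it. They were taken as every gene whose symbol is *Adam*, *Adamts* or *Adamtsl* followed by a number and at most 1 letter. By this rule 58 of the 22911 genes named on the array were included, namely 34 ADAM, 19 ADAMTS and 5 ADAMTS-like genes read by 92 probes. All 3 lines come from a female BALB/c background and were grown under the same conditions in RPMI1640 with 10% serum for 3 days, and the labels give no treatment or genetic change for any of them. The labels call LuM1 a high-metastatic and NM11 a low-metastatic line, and Colon26 is the parental line of both. Total RNA of each line was hybridized to 1 single-colour array, so that each line was 1 sample, differences have no replicates behind them and none was tested. The comparisons address how the expression signature of the highly metastatic line differs from those of the less metastatic lines.

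ADAMs are metalloproteases anchored in the cell membrane, and several of them are sheddases, which cut the ectodomains of growth factor precursors, cytokines, receptors and adhesion molecules off the cell surface. ADAMTS enzymes are their secreted relatives. They carry thrombospondin motifs and cut matrix components such as versican, aggrecan, procollagens and cartilage oligomeric matrix protein (COMP), and ADAMTS-like proteins share the thrombospondin motifs but lack the catalytic domain. In colon tumors, ADAM10 and ADAM17 are best known for releasing ligands of the epidermal growth factor (EGF) receptor and for the cleavage of Notch. Many other ADAMs of the mouse are expressed mainly in testis and epididymis and serve the binding and maturation of sperm.

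Levels are given as scaled signals, the background-subtracted brightness of a probe after each array was scaled to the same 75th percentile (576.6), with the error that the scanner software assigned to the spot. A gene was called detected where a probe was well above background by the software's flag. A probe below that flag gave only a bound, taken against the dimmest probe that the flag still passed on the same array (26.7 in Colon26, 20.0 in LuM1 and 19.5 in NM11 cells) or against its own signal where that was higher. Signals of different genes come from different probes, so the level of one gene was not set against that of another, and sums over markers serve only to set the lines beside each other. Between 49.9% and 53.8% of all probes were well above background on an array, and no spot was saturated.

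The label of a colon line was set against cell type markers. Of 11 markers of colon epithelium 3 were well above background in Colon26, 4 in LuM1 and 3 in NM11 cells. Their summed scaled signal was 1187 in Colon26, 460 in LuM1 and 399 in NM11 cells. Of this list *Cdh1*, *Krt18*, *Krt19*, *Cdx1*, *Vil1*, *Muc2* and *Lgr5* were detected in no line, whereas *Krt8*, *Krt20* and *Cdx2* were detected in all of them. In Colon26, LuM1 and NM11 cells *Krt20* read 658, 54.2 and 157 and *Cdx2* 447, 230 and 167, whereas *Krt8* read 29.2, 107 and 37.0. All 7 mesenchymal markers were detected in every line, with summed signals of 185275 in Colon26, 245993 in LuM1 and 198232 in NM11 cells. Of 5 leukocyte markers *Ptprc* and *Adgre1* were detected in no line, and the sum was 12693 in LuM1 cells against 5950 in Colon26 and 5216 in NM11 cells, with *Cd68* as the marker that reached 2-fold. The germ cell markers *Ddx4*, *Sycp3* and *Acrv1* were detected in no line, and the other 4 of the list of 7 were detected in all lines, with a sum of 182 in Colon26, 2058 in LuM1 and 2147 in NM11 cells. Of these *Dazl* read 39.2, 1785 and 1967 in Colon26, LuM1 and NM11 cells, *Prm1* 42.6, 119 and 83.2, *Prm2* 50.6, 110.4 and 56.4 and *Tnp1* 31.4, 29.6 and 27.8. The part of these differences in the values below was not tested, and in RNA of a whole culture fewer cells of a type and less RNA per cell cannot be told apart.

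Upstream sequences are shown for the genes that had the largest step-like increase from Colon26 through NM11 to LuM1 cells, described below, namely *Adam8*, *Adam19*, *Adamts4*, *Adamts7* and *Adamts9*. RefSeq promoter entries (mouse assembly GRCm38.p6) matched 32 of the 58 genes and 3 of these 5. The 250 bases before an annotated start are printed 5′ to 3′ on the strand of the gene. Capitals mark matches, on either strand, to AP-1 (TGANTCA), NF-kB (searched as a pattern of 10 letters), the GC box (GGGCGG) and the core of the hypoxia response element in its forms ACGTG and GCGTG. *Adam19* had 3 annotated starts, of which the outermost and the one with the most matches are shown.
Adam8, chr7:139992563-139992812 (-): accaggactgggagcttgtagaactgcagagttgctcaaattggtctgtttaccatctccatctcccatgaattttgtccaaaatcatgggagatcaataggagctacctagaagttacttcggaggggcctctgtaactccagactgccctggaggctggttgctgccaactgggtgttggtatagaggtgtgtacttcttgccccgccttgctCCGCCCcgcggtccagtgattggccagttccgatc
Adamts9, chr6:92943535-92943784 (-): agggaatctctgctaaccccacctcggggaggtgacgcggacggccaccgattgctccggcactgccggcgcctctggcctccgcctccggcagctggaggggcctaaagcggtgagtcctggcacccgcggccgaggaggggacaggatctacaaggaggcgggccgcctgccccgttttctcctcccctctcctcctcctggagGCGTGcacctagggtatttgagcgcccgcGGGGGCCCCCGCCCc
Adam19, chr11:46054252-46054501 (+): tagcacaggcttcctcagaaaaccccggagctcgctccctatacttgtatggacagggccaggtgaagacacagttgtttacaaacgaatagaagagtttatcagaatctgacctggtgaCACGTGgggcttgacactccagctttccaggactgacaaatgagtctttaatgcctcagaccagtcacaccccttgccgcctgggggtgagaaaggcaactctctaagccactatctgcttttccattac
Adam19, chr11:46055734-46055983 (+): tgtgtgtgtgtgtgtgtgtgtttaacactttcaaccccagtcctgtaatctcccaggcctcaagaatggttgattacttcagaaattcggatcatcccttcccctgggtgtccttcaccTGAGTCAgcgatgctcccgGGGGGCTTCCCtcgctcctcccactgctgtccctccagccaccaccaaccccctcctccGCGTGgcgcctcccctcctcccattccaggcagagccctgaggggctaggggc
The *Adamts9* window had a GC content of 71.2%, against a median of 52.4% over 32851 promoter windows of the same length. It held a GCGTG core, an NF-kB match 15 bases before the start and a GC box that shares its first letters with the end of the NF-kB match. The *Adam8* window had a GC content of 52.8% and held a GC box 35 bases before the start. The outermost *Adam19* window held CACGTG, which reads ACGTG on both strands, and the other printed *Adam19* window held an AP-1 match, a pair of overlapping NF-kB matches and a GCGTG core. Among all windows 6.75% held AP-1, 7.25% NF-kB, 32.7% the GC box, 16.6% ACGTG and 28.2% GCGTG. No motif was present in the printed windows of all 3 genes. These matches are descriptions of letters, not binding sites.

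Of the 58 genes 28 were detected in at least 1 line (48.3%, against 64.8% of all named genes), 20 were detected in all 3 lines and 30 in none. The number detected was 23 in Colon26, 26 in LuM1 and 23 in NM11 cells. All 9 membrane sheddases were detected somewhere. Of the 7 proteoglycanases 4 were detected, of the 22 other ADAMs, mostly of the germ line, 7 were, and of the 5 ADAMTS-like genes 3 were. Of the 3 ADAMs that lack protease activity and act mainly in the nervous system, *Adam11* was detected and *Adam22* and *Adam23* were not. *Adamts13*, whose product cuts von Willebrand factor, was detected in no line. The 30 genes detected nowhere also included *Adamts2*, *Adamts3*, *Adamts6*, *Adamts8*, *Adamts12*, *Adamts15*, *Adamts16*, *Adamts17*, *Adamts19*, *Adamts20*, *Adamtsl1* and *Adamtsl2*. The rest were the ADAMs *Adam1b*, *Adam2*, *Adam4*, *Adam6a*, *Adam6b*, *Adam7*, *Adam18*, *Adam20*, *Adam21*, *Adam24*, *Adam29*, *Adam30*, *Adam34*, *Adam34l* and *Adam39*.

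**Figure D1:**
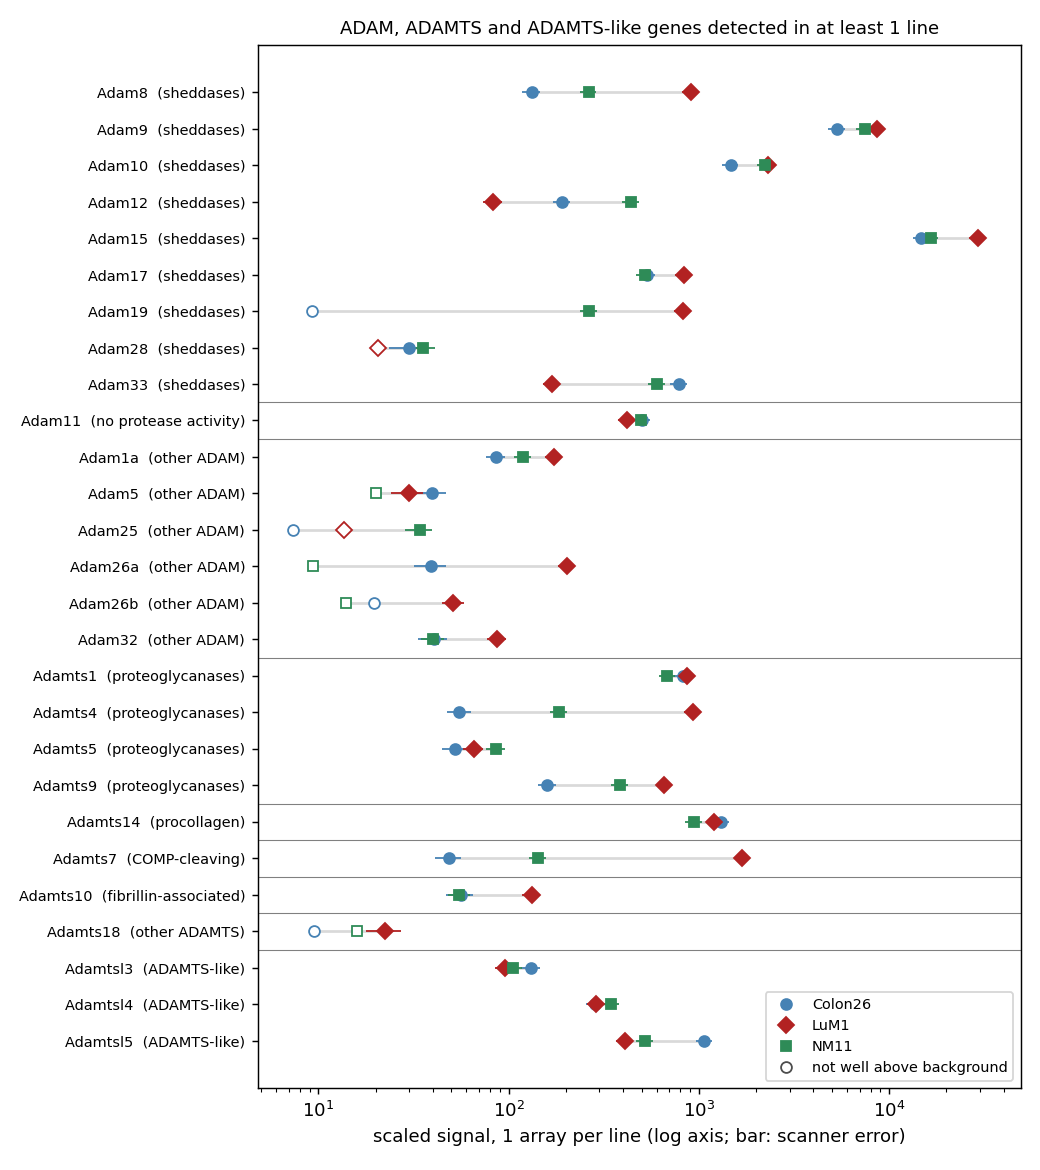
Scaled signal (log axis) of the 27 genes whose brightest probe was well above background in at least 1 line, 1 array per line, with horizontal bars for the scanner error and open symbols where the probe was not well above background. LuM1 cells had the highest signal for *Adam8*, *Adam19*, *Adamts4*, *Adamts7* and *Adamts9* and the lowest for *Adam12* and *Adam33*, whereas *Adam11*, *Adamts1* and *Adamts14* had similar signals in the 3 lines.

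Against Colon26, more of these genes were higher in LuM1 cells than were lower. Of 25 genes with a ratio or a bound, 9 were at least 2-fold higher (12.8% of all 14168 such genes on the array) and 3 were at least 2-fold lower (12.4% of all). The median log2 ratio of the 22 genes measured on both arrays was 0.65, against -0.15 over all 12394 genes so measured. Against NM11, 8 of 27 genes reached 2-fold or more in LuM1 cells (11.0% of all) and 2 were lower (8.60% of all), with a median log2 ratio of 0.36 over 21 genes against -0.11 over all genes. NM11 against Colon26 cells gave 5 of 25 at least 2-fold higher (8.17% of all) and 2 lower (8.11% of all), with a median of 0.25 over 21 genes against -0.04 over all genes. Each line enters a pair of these comparisons, so they are not independent.

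The genes that were higher in LuM1 cells were ADAMs and ADAMTS enzymes. Of the 7 ADAMTS genes measured in LuM1 and Colon26 cells 4 reached 2-fold or more in LuM1 cells (57.1%, against 12.8% of all genes). None was as far below (against 12.4% of all genes). Their median log2 ratio was 1.24 and stayed between 0.57 and 1.71 under the alternatives. Of 15 ADAM genes with a ratio or bound 5 were higher (33.3%) and 2 lower (13.3%), with a median of 0.68 over the 12 measured. The share of lower ADAM genes was thus near that of all genes. None of the 3 ADAMTS-like genes was 2-fold higher and 1 was lower, with a median of -0.45 that came to 0.02 in the authors' processed values. At the shares of all genes, a count of 0 among 7 or 3 genes does not set a family apart. Counting bounds, 7 of 25 genes exceeded the levels in both other lines by 2-fold or more in LuM1 cells (7.75% of all genes), namely *Adam8*, *Adam19*, *Adam26a*, *Adam32*, *Adamts4*, *Adamts7* and *Adamts10*. *Adam12* and *Adam33* lay below both other lines by 2-fold or more (2 of 25, 4.46% of all genes).

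**Figure D2:**
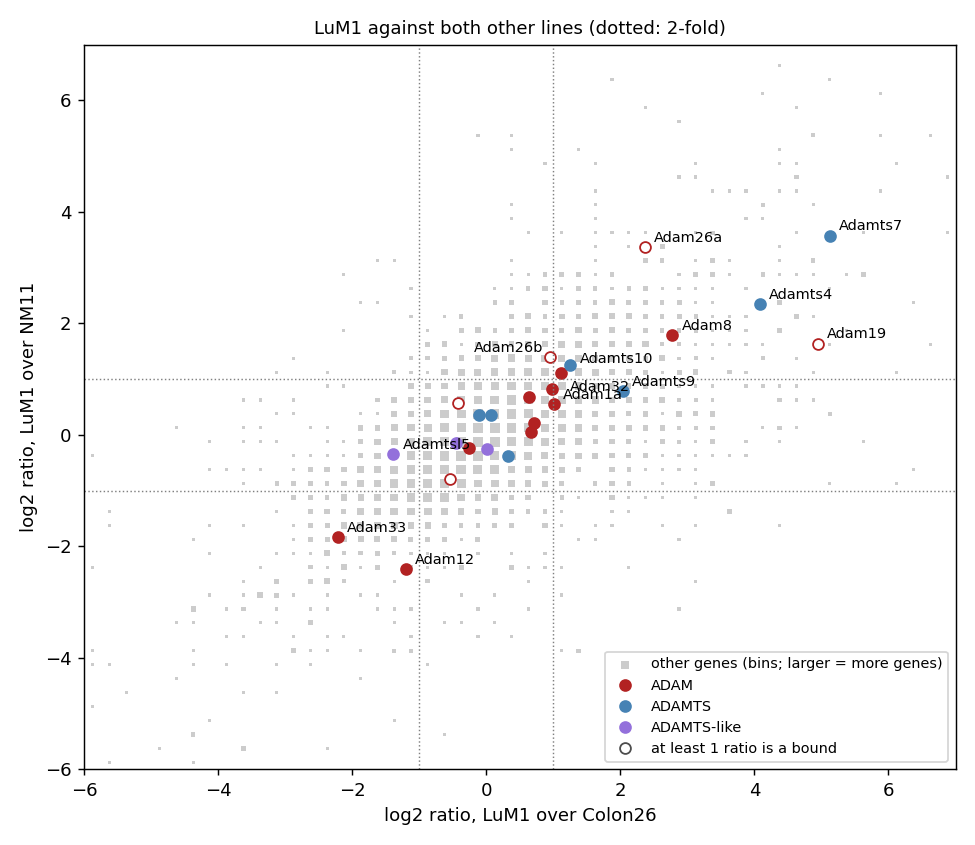
Log2 ratio of LuM1 over Colon26 (horizontal axis) against that of LuM1 over NM11 (vertical axis) for each gene with both values, coloured by family, over the 12225 other genes measured on all 3 arrays in bins of 0.25 by 0.25 log2 units. Open circles are genes with at least 1 bound, dotted lines mark 2-fold, names are given where either ratio reached 2-fold, and other genes beyond the axes are not drawn. Both axes share the LuM1 array, so a point far along the diagonal is in part the same LuM1 signal read against each of the other lines.

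Among the sheddases, the greatest difference was that of *Adam19* (meltrin beta), known for cutting neuregulin precursors. Its only probe was not well above background in Colon26 cells (9.28 ± 6.27), read 265 ± 26.9 in NM11 cells and was highest in LuM1 cells (820 ± 82.2). The level in LuM1 cells therefore exceeded that in Colon26 by at least 30.8-fold and that in NM11 by 3.10-fold (log2 ratio 1.63, scanner error 0.21). NM11 cells lay at least 9.93-fold above Colon26 cells. Other ways of processing put the bound of LuM1 over Colon26 between 3.31 and 6.47 on the log2 scale, the lowest with the normexp background correction, against 4.94 here. *Adam8*, a sheddase first known from myeloid cells, followed the same order, with 132 ± 14.4 in Colon26, 263 ± 26.6 in NM11 and 906 ± 90.7 in LuM1 cells. LuM1 cells were 6.85-fold above Colon26 cells (log2 2.78, error 0.21) and 3.45-fold above NM11 cells (log2 1.78). Its dimmer probe was well above background in LuM1 cells alone, with a signal of 39.0. The summed leukocyte markers were also highest in LuM1 cells. Of these *Cd68* alone reached 2-fold, with 174, 5219 and 298 in Colon26, LuM1 and NM11 cells. In the same order *Csf1r* read 689, 686 and 672. *Itgam* read 5075, 6775.5 and 4236, and its other probe was lower in LuM1 cells (log2 -1.68 against Colon26 and -0.63 against NM11). *Ptprc* and *Adgre1* were not well above background in LuM1 cells. The part of these markers in the *Adam8* values was not tested.

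*Adam33* and *Adam12* went the other way. *Adam33*, known from mesenchymal cells of the airway and as an asthma susceptibility gene, read 785 ± 78.7 in Colon26 and 602 ± 60.3 in NM11 cells but 169 ± 17.4 in LuM1 cells. Its level in LuM1 was thus 4.65-fold below that in Colon26 (log2 -2.22, error 0.21) and 3.56-fold lower than in NM11 cells (log2 -1.83). All 4 probes of *Adam33* were lower in LuM1 cells, with log2 ratios from -3.51 to -2.21 against Colon26 and from -3.24 to -1.83 against NM11. *Adam12* (meltrin alpha), an ADAM of muscle and placenta, read 191 ± 19.9 in Colon26, 441 ± 44.3 in NM11 and 82.7 ± 9.33 in LuM1 cells. Here NM11 was the high line, 2.31-fold above Colon26, and LuM1 cells lay 2.31-fold below Colon26 (log2 -1.21) and 5.33-fold below NM11 cells (log2 -2.41). A dimmer *Adam12* probe was well above background in NM11 cells alone (99.4), which put LuM1 at least 4.97-fold below NM11 cells.

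The sheddases with the widest roles differed less. *Adam10*, the main alpha-secretase and Notch sheddase, read 1468 ± 147 in Colon26, 2320 ± 232 in LuM1 and 2238 ± 224 in NM11 cells. By this brightest probe LuM1 and NM11 cells were 1.58-fold and 1.52-fold above Colon26 cells and did not differ from each other beyond the scanner error. A dimmer *Adam10* probe put LuM1 1.95-fold and NM11 1.62-fold above Colon26 cells (log2 0.26 for LuM1 over NM11). *Adam17*, which releases tumor necrosis factor and most ligands of the EGF receptor, read 537 ± 54.1 in Colon26, 833 ± 83.4 in LuM1 and 521 ± 52.4 in NM11 cells, so that LuM1 was 1.55-fold and 1.60-fold above the other lines. A dimmer *Adam17* probe also put LuM1 above NM11 cells (log2 0.68) but below Colon26 cells (log2 -0.58). The spot of that probe on the Colon26 array had 10 of its 24 nearest neighbours called well above background on that array alone.

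*Adam15*, an ADAM of endothelial and epithelial cell adhesion, was just inside 2-fold by its brightest probe, with 14796 ± 1480 in Colon26, 29321 ± 2932 in LuM1 and 16514 ± 1651 in NM11 cells. Its ratio of LuM1 over Colon26 was 1.98-fold (log2 0.99), and its other probes gave 2.02-fold and 2.05-fold. Under 5 of 9 other ways of processing the ratio was at least 2-fold. *Adam9*, a widely expressed sheddase, read 5312 ± 531 in Colon26, 7471 ± 747 in NM11 and 8678 ± 868 in LuM1 cells. LuM1 was 1.63-fold above Colon26 and 1.16-fold above NM11 cells, the latter close to the scanner error of 0.20 on the log2 scale. *Adam28*, known from lymphocytes, was dim in every line. It read 30.0 ± 6.46 in Colon26 and 35.6 ± 5.40 in NM11 cells and was not well above background in LuM1 cells (20.5 ± 4.69). *Adam11*, a brain ADAM without protease activity, read 500.5 ± 50.4, 420 ± 42.2 and 496 ± 49.8 in Colon26, LuM1 and NM11 cells, all within 1.2-fold.

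Among the ADAMs known mainly from testis, *Adam26a* (testase 3) read 39.3 ± 7.31 in Colon26 and 202 ± 20.7 in LuM1 cells and was not well above background in NM11 cells (9.36 ± 4.49). LuM1 cells were 5.14-fold above Colon26 cells (log2 2.36, error 0.31) and at least 10.3-fold above NM11 cells (log2 3.37). The normexp correction lowered these log2 values to 1.31 and 1.56. The *Adam26a* spot on the LuM1 array had 7 neighbours called there alone, although the probe itself was also called in Colon26 cells. The probe of the close relative *Adam26b* was well above background in LuM1 cells alone (51.3 ± 6.78), at least 1.92-fold above Colon26 and at least 2.63-fold above NM11 cells. The *Adam26a* and *Adam26b* genes are near copies, as are *Adam1a* and *Adam1b*, and whether their probes bind each other's RNA was not tested.

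*Adam1a*, which serves sperm protein maturation, read 86.1 ± 10.2 in Colon26, 119 ± 12.5 in NM11 and 174 ± 17.9 in LuM1 cells. Its ratio of LuM1 over Colon26 was just outside 2-fold (2.02-fold, log2 1.01). *Adam32*, a testis gene, read 40.3 ± 6.87 in Colon26, 40.2 ± 5.65 in NM11 and 86.8 ± 9.62 in LuM1 cells, 2.15-fold and 2.16-fold higher. The *Adam32* spot on the NM11 array had 7 neighbours called there alone. No other *Adam32* probe passed the detection flag on an array, and the mean over its probes gave a log2 ratio of LuM1 over NM11 of -0.03. *Adam5*, a testis ADAM, was dim (39.7 ± 7.35 in Colon26, 29.8 ± 5.64 in LuM1 and 20.03 ± 4.93 in NM11 cells, not well above background in the last), and no ratio or bound of it reached 2-fold. *Adam25* (testase 2) was called in NM11 cells alone (34.1 ± 5.38), where its spot had 8 neighbours called there alone. *Adam3* (cyritestin), a sperm ADAM, was called in LuM1 cells alone, by 2 dim probes (30.6 and 31.3), while its brightest probe by mean signal was called nowhere. Among the germ cell markers, *Dazl* was high in both LuM1 and NM11 cells. *Prm1* and *Prm2*, which encode sperm protamines, had their highest signals in LuM1 cells, as *Adam1a*, *Adam26a*, *Adam26b* and *Adam32* did. *Tnp1* had similar signals in Colon26, LuM1 and NM11 cells (31.4, 29.6 and 27.8), and *Ddx4*, *Sycp3* and *Acrv1* were detected in no line. The part of the germ cell markers in these values was not tested.

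Among the proteoglycanases, *Adamts4* and *Adamts9* were higher in LuM1 cells, and *Adamts1* and *Adamts5* were within 2-fold in every comparison. *Adamts4* (aggrecanase 1), which cuts aggrecan and versican, read 55.1 ± 7.97 in Colon26, 184 ± 18.8 in NM11 and 934 ± 93.5 in LuM1 cells. The ratio of LuM1 over Colon26 was 16.9-fold (log2 4.08, error 0.25), that of LuM1 over NM11 was 5.07-fold (log2 2.34, error 0.21) and that of NM11 over Colon26 was 3.34-fold. With the normexp correction the log2 ratio of LuM1 over Colon26 was 2.96. *Adamts9*, a versican-cutting enzyme, read 160 ± 17.1 in Colon26, 384 ± 38.7 in NM11 and 660 ± 66.1 in LuM1 cells. LuM1 was 4.12-fold above Colon26 (log2 2.04, error 0.21) and 1.72-fold above NM11 cells (log2 0.78), a step beyond the scanner error but under 2-fold. *Adamts1*, another versicanase, read 828 ± 83.0, 870 ± 87.1 and 682 ± 68.3 in Colon26, LuM1 and NM11 cells. *Adamts5* (aggrecanase 2) was dim, at 52.4 ± 7.73, 65.6 ± 7.81 and 85.8 ± 9.49 in the same order of lines, with NM11 as the high line.

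The largest ratio measured among the 58 genes was that of *Adamts7*, whose product cuts COMP and is linked to vascular smooth muscle migration. Its probe A_55_P2728573 read 48.4 ± 7.54 in Colon26, 142 ± 14.8 in NM11 and 1694 ± 169 in LuM1 cells. LuM1 cells were 35.0-fold above Colon26 cells (log2 5.13, error 0.27) and 11.9-fold above NM11 cells (log2 3.58, error 0.21), and NM11 cells were 2.93-fold above Colon26 cells. With the normexp correction the log2 ratio of LuM1 over Colon26 was 3.83. The related *Adamts12* was detected in no line, and so was *Comp*, the substrate that gives the group its name. *Adamts10*, which binds fibrillin microfibrils, read 55.9 ± 8.77 in Colon26, 55.1 ± 7.26 in NM11 and 132 ± 14.1 in LuM1 cells, 2.36-fold and 2.40-fold higher in LuM1 cells. Its dimmer probe gave the same difference against NM11 (log2 1.25) but none against Colon26 (log2 0.04). *Adamts14*, which trims the N-propeptide of procollagens, read 1304 ± 131, 1206 ± 121 and 942 ± 94.3 in Colon26, LuM1 and NM11 cells, all within 1.4-fold. *Adamts18* was called in LuM1 cells alone at the edge of detection (22.5 ± 4.75).

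No ADAMTS-like gene reached 2-fold higher levels in LuM1 cells. *Adamtsl5*, a binder of fibrillins and heparin, read 1068 ± 107 in Colon26, 409 ± 41.2 in LuM1 and 522 ± 52.4 in NM11 cells. Colon26 was the high line by 2.61-fold over LuM1 (log2 -1.39 for LuM1 over Colon26) and 2.05-fold over NM11 cells. Its other probe gave the same ratio of LuM1 over Colon26 (log2 -1.30) but placed NM11 with Colon26 (log2 0.11) rather than with LuM1 cells. *Adamtsl3* read 131 ± 14.5, 95.8 ± 10.7 and 106 ± 11.47 in Colon26, LuM1 and NM11 cells. *Adamtsl4*, known from the lens zonule, read 285 ± 29.0, 287 ± 29.0 and 344 ± 34.6, so that both lay within 1.4-fold in all comparisons by their brightest probes. A dimmer *Adamtsl4* probe put LuM1 1.65-fold and NM11 1.76-fold above Colon26 cells.

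Where several probes of a gene were measured, they mostly pointed the same way. The direction was the same for 7 of 8 genes in LuM1 against Colon26 (*Adam17* was the exception), 8 of 9 in LuM1 against NM11 (the exception was *Adam11*, whose second probe was dim) and 7 of 8 in NM11 against Colon26 (the exception was *Adamtsl5*). *Adam19*, *Adamts4*, *Adamts7* and *Adamts9* each had only 1 named probe, so their values have no such check. Their spots had at most 2 neighbours called on the same array alone.

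**Figure D3:**
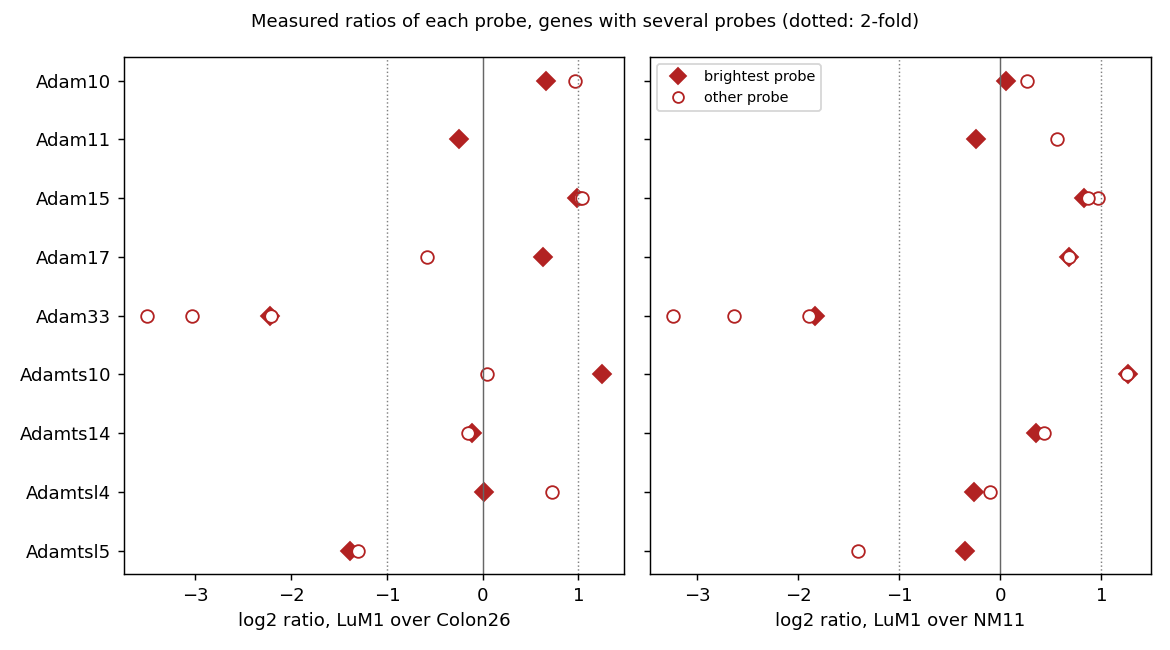
Measured log2 ratios of LuM1 over Colon26 (left) and LuM1 over NM11 (right) for each probe of the genes with several measured probes, with filled diamonds for the brightest probe, open circles for the others and dotted lines at 2-fold. The 4 *Adam33* probes all lie below -1.8, the 3 *Adam15* probes lie together near 2-fold, and the probes of *Adam17* and *Adamts10* differ against Colon26 but not against NM11.

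The 3 lines were also ordered gene by gene. Of the 20 genes detected on all 3 arrays by their brightest probe, 6 stood in the order LuM1 above NM11 above Colon26 with each step larger than its scanner error (6.76% of all 12245 genes so measured), namely *Adam1a*, *Adam8*, *Adam9*, *Adamts4*, *Adamts7* and *Adamts9*. *Adam19* had the same order through a bound. The reverse order held for *Adam33* and *Adamtsl5* (2 of 20, 11.4% of all genes). Some of these steps shrank or turned under other ways of processing. On the log2 scale, *Adam9* fell to 0.18 in LuM1 over NM11 and to 0.02 in NM11 over Colon26. *Adam1a* fell to -0.01 in NM11 over Colon26, and *Adamtsl5* rose to 0.24 in LuM1 over NM11. The values nearest to the threshold were *Adam1a* (2.02-fold) just outside and *Adam15* (1.98-fold) just inside 2-fold in LuM1 against Colon26, *Adam32* (2.16-fold) and *Adam15* (1.78-fold) in LuM1 against NM11, and *Adamtsl5* (2.05-fold lower), *Adam26a* (at least 2.01-fold lower), *Adam5* (at least 1.98-fold lower) and *Adam8* (1.99-fold higher) in NM11 against Colon26. Under at least 1 other way of processing, *Adam1a*, *Adam12*, *Adam32*, *Adamts10* and *Adamtsl5* came within 2-fold in LuM1 against Colon26 and *Adam26b*, *Adam32* and *Adamts10* in LuM1 against NM11. In NM11 against Colon26 this held for *Adam12*, *Adam26a*, *Adamts7*, *Adamts9* and *Adamtsl5*. Conversely, *Adam9*, *Adam10*, *Adam15*, *Adam17* and *Adam26b* reached 2-fold under at least 1 of them in LuM1 against Colon26, and *Adam1a*, *Adam5*, *Adam15*, *Adam17*, *Adam25*, *Adam28* and *Adamts9* did so in LuM1 against NM11. In NM11 against Colon26 these were *Adam5*, *Adam8* and *Adam25*.

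Genes that inhibit, traffic or activate these proteases, or are cut by them, were read on the same arrays. Of 60 such genes all had a probe and 48 were detected in at least 1 line. In LuM1 against Colon26 cells 12 of 47 were at least 2-fold higher (25.5%, against 12.8% of all genes) and 9 were lower (19.1% against 12.4%), with a median log2 ratio of 0.15 over 39 measured genes against -0.15 over all. Against NM11 cells 9 of 47 were higher (19.1% against 11.0% of all) and 11 lower (23.4% against 8.60%), with a median of -0.08 over 43 against -0.11 over all. Under at least 1 other way of processing, the differences of *Reck*, *Tspan15*, *Btc*, *Cd44*, *Prnp* and *Col1a1* in LuM1 against Colon26 came within 2-fold, and *Prnp* and *Tspan15* changed direction with the mean over probes. Against NM11 the same held for *Timp1*, *Tspan17*, *Btc*, *Cd44*, *Col1a1*, *Col2a1* and *Col3a1*, with no change of direction. Among the genes described below, *Timp1*, *Reck*, *Tspan5*, *Tspan17*, *Sdc4*, *Areg*, *Tgfa*, *Tnfrsf1b*, *Bgn*, *Dcn*, *Col1a2* and *Col3a1* had only 1 named probe each. Their values, some of the widest here, therefore have no check by a second probe.

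The inhibitors held one of the widest differences. *Timp3*, the matrix-bound inhibitor of ADAM17, ADAMTS4 and ADAMTS5, read 32921 ± 3292 in Colon26 and 29640 ± 2964 in NM11 cells but 32.6 ± 5.57 in LuM1 cells. The level in LuM1 cells was thus 1009-fold and 909-fold lower (log2 -9.98 and -9.83), and a second probe gave -9.79 and -9.72 as bounds. Other ways of processing brought the brightest probe to -8.32 and -8.19 at the least. *Timp1* read 34094 ± 3409 in Colon26, 24673 ± 2467 in LuM1 and 66953 ± 6695 in NM11 cells, 2.71-fold lower in LuM1 than in NM11 cells. *Reck*, a membrane-anchored inhibitor of metalloproteases, was highest in LuM1 cells, with 842 ± 84.3 against 418 ± 42.2 in Colon26 and 255 ± 25.9 in NM11 cells. *Timp2* was within 2-fold in all comparisons by its brightest probe, although its dimmer probe put LuM1 cells lower (log2 -1.13 against Colon26 and -1.14 against NM11), and *Timp4* was detected in no line.

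The genes that guide ADAM10 and ADAM17 to the surface did not move together. Of the tetraspanins that bind ADAM10, *Tspan5* read 4946 ± 495 in Colon26, 2547 ± 255 in NM11 and 640 ± 64.1 in LuM1 cells, where it was 7.73-fold and 3.98-fold lower. *Tspan17* had the opposite order, with 372 ± 37.6 in Colon26, 708 ± 70.9 in NM11 and 1444 ± 144 in LuM1 cells, 3.88-fold and 2.04-fold higher in LuM1 cells. *Tspan15* was detected in Colon26 cells by its brightest probe (83.7 ± 10.3) and not in the other lines, while its other probe gave the opposite direction (log2 of at least 0.50 for LuM1 over Colon26). *Rhbdf2*, which carries ADAM17 out of the endoplasmic reticulum, was just inside 2-fold, with 1601 ± 160 in LuM1 against 803 ± 80.5 in Colon26 and 820 ± 82.0 in NM11 cells. *Rhbdf1* (4564 ± 456, 3672 ± 367 and 5343 ± 534 in Colon26, LuM1 and NM11 cells) and *Frmd8* (3774 ± 377, 4474 ± 447 and 4369 ± 437) were within 1.5-fold. Of the convertases that activate the proenzymes, *Furin* (2555 ± 256 in Colon26, 3639 ± 364 in LuM1 and 4291 ± 429 in NM11 cells) and *Pcsk7* (525 ± 52.8, 803 ± 80.4 and 744 ± 74.5) were within 2-fold. *Sdc4*, which takes part in the uptake of ADAMTS enzymes, read 1907 ± 191 in Colon26, 3500 ± 350 in NM11 and 4684 ± 468 in LuM1 cells, 2.46-fold above Colon26, and *Lrp1*, the clearance receptor, was within 2-fold of both (5718 ± 572 in Colon26, 4626 ± 463 in LuM1 and 5099 ± 510 in NM11 cells).

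Among the EGF family ligands that sheddases release, 2 of 7 with a value reached 2-fold higher levels in LuM1 against Colon26 (28.6%, against 12.8% of all genes). Only *Btc* reached 2-fold lower levels (14.3% against 12.4%). Of the 5 ligands measured on both arrays, however, 1 was higher and 4 were lower, with a median log2 ratio of -0.81 against -0.15 over all genes. Against NM11, 2 of 7 were at least 2-fold higher (28.6%, against 11.0% of all genes) and 2 as far below (28.6% against 8.60%). Amphiregulin (*Areg*) read 284 ± 28.9 in Colon26, 1436 ± 144 in NM11 and 4200 ± 420 in LuM1 cells, 14.8-fold and 2.92-fold higher in LuM1 cells. *Tgfa* was detected in LuM1 cells alone (198 ± 20.3), at least 7.42-fold and 10.1-fold higher. *Btc* was detected in Colon26 (40.7 ± 7.81) and NM11 cells (65.6 ± 8.06) and not in LuM1 cells, a log2 bound of -1.03 against Colon26 that came as near to 0 as -0.03 under other ways of processing. The brightest probe of neuregulin 1 (*Nrg1*) read 4894 ± 489 in Colon26, 8337 ± 834 in NM11 and 2526 ± 253 in LuM1 cells. The 3 *Nrg1* probes disagreed in direction against Colon26 (log2 from -1.29 to 0.95).

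Of 17 other shed surface proteins with a value, 3 reached 2-fold higher and 2 reached 2-fold lower levels in LuM1 against Colon26, shares near those over all genes (12.8% and 12.4%). The lower ones were the hyaluronan receptor *Cd44* (log2 -1.09, from -1.65 to -0.33 over its 3 probes) and the prion protein *Prnp* (log2 -1.13), whose other probe went the opposite way (log2 1.23). The chemokine *Cxcl16*, a substrate of ADAM10, was not well above background in Colon26 cells (16.5 ± 6.06) and read 96.2 ± 10.5 in NM11 and 483 ± 48.5 in LuM1 cells, at least 18.1-fold and 5.02-fold higher in LuM1 cells. *App*, the amyloid precursor, was not well above background in Colon26 cells (14.4 ± 6.18) and read 7075 ± 707 in LuM1 and 12400 ± 1240 in NM11 cells. By this brighter of its 2 probes it was at least 265-fold above Colon26 in LuM1 cells, and the other, dimmer probe gave a log2 bound of 3.01. The high line was NM11. The bound of the brighter probe (log2 8.05) lay between 5.53 and 8.94 under other ways of processing. The tumor necrosis factor receptor *Tnfrsf1b* read 323 ± 32.8, 1155 ± 116 and 435 ± 43.7 in Colon26, LuM1 and NM11 cells, 3.58-fold and 2.66-fold higher in LuM1 cells. *Cdh1*, a substrate of ADAM10, was detected in no line.

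The substrates of the ADAMTS enzymes showed wide differences in both directions. Of 8 with a value in LuM1 and Colon26 cells 4 reached 2-fold or more in LuM1 cells (against 12.8% of all genes) and 3 were as far below (against 12.4%). Versican (*Vcan*) read 115 ± 13.0 in Colon26, 158 ± 16.3 in NM11 and 707 ± 70.9 in LuM1 cells, 6.13-fold and 4.48-fold higher in LuM1 cells (log2 2.62 and 2.16). Its other probes did not pass the detection flag in Colon26 cells and gave log2 bounds of 2.71 and 5.86 there, and ratios of 2.92 and 3.37 against NM11. Biglycan (*Bgn*), another proteoglycan, read 157 ± 16.8, 190 ± 19.5 and 3702 ± 370 in Colon26, NM11 and LuM1 cells, 23.5-fold and 19.5-fold higher. Decorin (*Dcn*) was not well above background in Colon26 cells (6.12 ± 6.15) and read 9566 ± 957 in NM11 and 27334 ± 2733 in LuM1 cells, at least 1025-fold and 2.86-fold higher in LuM1 cells. The bound (log2 10.00) lay between 8.28 and 12.12 under other ways of processing. The collagen chain *Col1a2* was the opposite case, with 60475 ± 6047 in Colon26 and 84983 ± 8498 in NM11 cells against 49.3 ± 6.85 in LuM1 cells, 1227-fold and 1724-fold lower (log2 -10.26 and -10.75, and at the least -8.88 and -9.39 under other ways of processing). *Col1a1*, its partner chain, was 2.22-fold and 2.70-fold lower in LuM1 cells (log2 -1.15 and -1.43), against at the least -0.68 and -0.84 under other ways of processing. The collagen chain *Col3a1* did not follow them against Colon26, where LuM1 cells were 3.92-fold higher, but LuM1 cells were 2.28-fold below NM11 cells. *Fbn1* (fibrillin 1) was 4.93-fold below Colon26 and 1.63-fold below NM11 in LuM1 cells. *Acan*, *Bcan*, *Ncan* and *Vwf* were detected in no line.

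**Figure D4:**
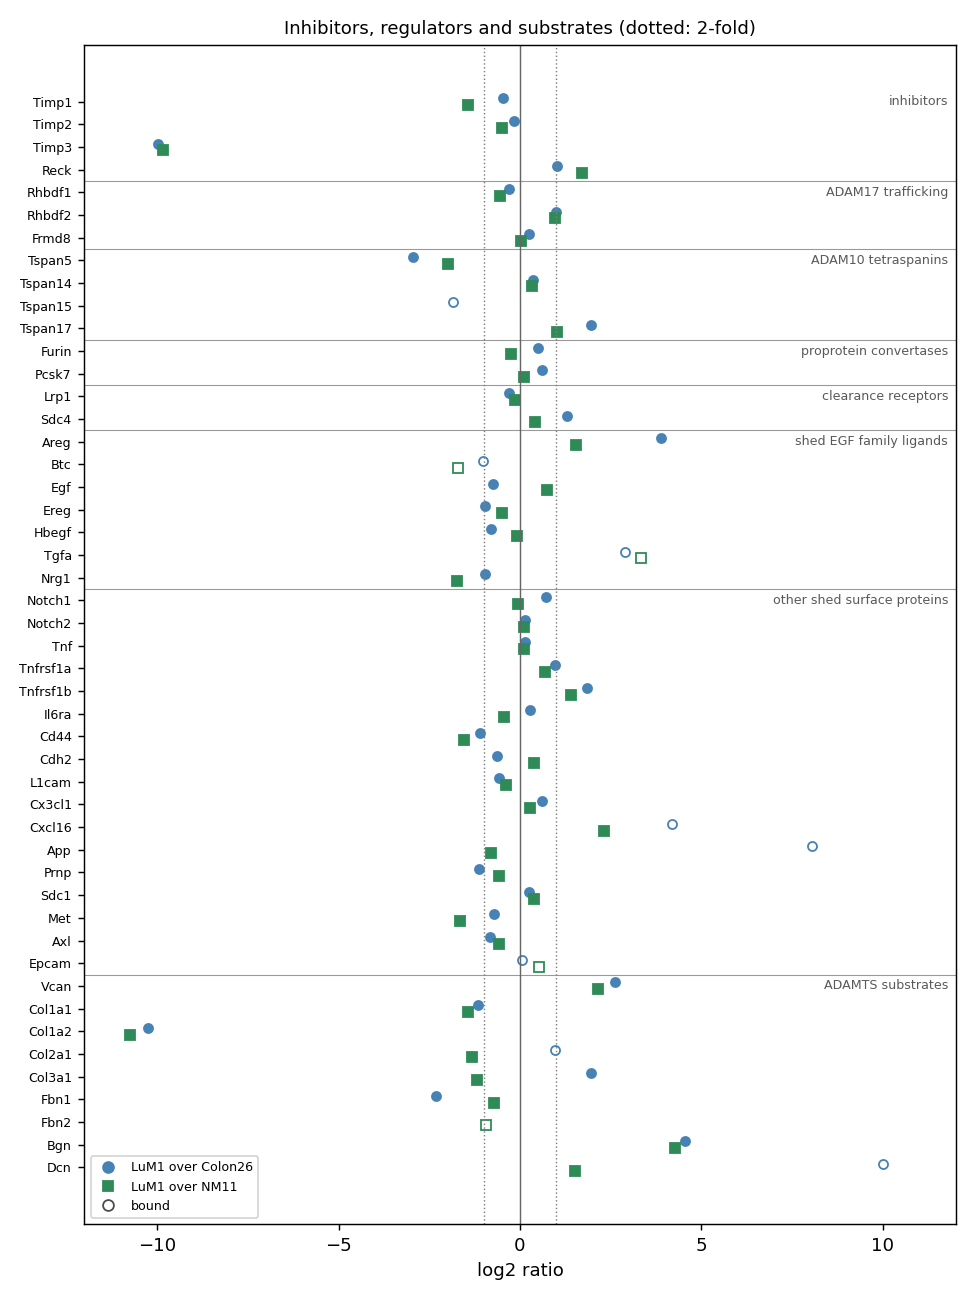
Log2 ratios of LuM1 over Colon26 (circles) and LuM1 over NM11 (squares) for the inhibitors, trafficking partners, convertases, clearance receptors and substrates with a value, with open symbols for bounds and dotted lines at 2-fold. *Timp3* and *Col1a2* lie near -10 against both lines, *Bgn* lies above 4 against both, and *App* and *Dcn* have their largest values, as bounds, against Colon26.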

How the data were processed

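RNA of the lines Colon26, LuM1 and NM11 was read on single-colour Agilent mouse arrays, 1 per line, on 1 slide with 1 scan. The authors deposited intensity values and flags (0 or 1) per spot from Agilent Feature Extraction 11.5.1.1, background-subtracted and not scaled between arrays, and a table of processed intensity values that equal these times 1 factor per array. Where a spot was not significantly above background, the deposited intensity is nearly always its error. Labelling started from 0.1 µg of RNA.

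Control and outlier spots were left out, repeated spots averaged, and each array scaled to its 75th percentile over spots (567 in Colon26, 620 in LuM1, 545 in NM11 before scaling). Probes were named through RefSeq accessions (GRCm38.p6), 32994 of 56605. The array was designed on an older assembly, so probes have no coordinates here. A gene was read by its named probe with the highest mean log2 signal. Every detected member was named. Of each partner list up to 3 genes with the largest ratios were given with signals, and the other genes named were added after their values were seen. Members, groups and lists were chosen with earlier results of these data known. A factor between arrays moves all ratios of a pair alike. Scaling to Hprt moved the median log2 ratio of all genes in LuM1 over NM11 from -0.11 to 0.48, and the authors' factors moved that of LuM1 over Colon26 from -0.15 to 0.32. The number of arrays limits the precision, and scanner errors are technical only. The 8 alternatives were no scaling, Hprt, quantile normalization, normexp correction (offset 50, on median spot brightness), the deposited processed values, detection by the flag for signals significantly above background (the looser rule), the mean over probes and leaving out clustered spots (at least 6 of 24 neighbours called on that array alone). Another, the 75th percentile over averaged probes, was chosen after seeing the data. The ratio script was tested on simulated data. Python 3.11.15, numpy 2.4.6, pandas 2.3.3, matplotlib 3.10.9, R 4.3.3 and limma 3.58.1 were used.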

Additional observations from a re-analysis of the deposited data

How the results depend on the processing

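With 1 array per line no replicate could be left out. No paired analysis was possible because each line had 1 sample and no test was run. Of 29 ratios or bounds of at least 2-fold, 28 kept their direction under all 9 alternatives and 16 also stayed at least 2-fold. The exception was *Adam32* in LuM1 over NM11, at -0.032 with the mean over probes. *Adam8*, *Adam19*, *Adam26a*, *Adamts4* and *Adamts7* stayed at least 2-fold higher, and *Adam33* as far below, in LuM1 against both other lines under all 9, whereas *Adam12* was lost from the latter under the normexp correction, the authors' values and the mean over probes. The count higher than both was between 5 and 11. Not all 9 alternatives could move these calls. Leaving out clustered spots drops only probes called on 1 array alone, and of the 92 probes it dropped only that of *Adam25*. *Adam26a*, with 7 neighbours called on the LuM1 array alone, was kept because it was also called in Colon26 cells. The mean over probes cannot change *Adam19*, *Adam26a*, *Adamts4* and *Adamts7*, which have 1 named probe each.

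In LuM1 over Colon26, the authors' values gave 14 genes at least 2-fold higher and 1 lower with a median log2 ratio of 1.12, the looser detection rule gave 5 lower, and the mean over probes a median of 0.34. The normexp correction gave 6 higher. In LuM1 over NM11, scaling to *Hprt* gave 13 higher with a median of 0.95, the normexp correction 5 higher, the looser rule 4 lower, the quantile normalization 3 lower and the authors' values a median of 0.77. In NM11 over Colon26, higher counts were 3 by *Hprt*, 2 by normexp and 8 by the looser rule. Lower counts were 3 without scaling and by *Hprt*, 1 by quantile normalization and by the mean over probes, 6 by the looser rule, and 0 by normexp, the authors' values and the percentile over averaged probes. *Hprt* turned the median to -0.22. The median of these genes minus that of all genes, in which a factor between arrays cancels, was 0.80 in LuM1 over Colon26, 0.47 in LuM1 over NM11 and 0.29 in NM11 over Colon26. Under the settings that can move it, it lay between 0.50 and 0.80, 0.43 and 0.48, and 0.12 and 0.32, lowest with the mean over probes, the normexp correction and the looser rule. Signals near background limit *Adam5*, *Adam25*, *Adam28*, *Adam3* and *Adamts18*. Equally dim signals enter the ratios or bounds of *Adam26a* (39.3 in Colon26), *Adam32* (40.3 in Colon26 and 40.2 in NM11) and *Adam26b* (51.3 in LuM1). The Colon26 signals of *Adamts7* (48.4) and *Adamts4* (55.1), on which their large ratios rest, were not far above the dimmest flagged probe (26.7).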

Other observations

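In NM11 against Colon26 cells, several substrates of these proteases were far apart. Neither *App* nor *Dcn* was well above background in Colon26 cells. The brighter *App* probe was at least 465-fold higher in NM11 cells (log2 8.86, and from 6.49 to 9.75 under other ways of processing), the dimmer one gave a log2 bound of 4.12, and *Dcn* was at least 359-fold higher (log2 8.49, and from 6.69 to 10.61). *Col3a1*, a fibrillar collagen chain, was 8.92-fold higher (2645 ± 265 against 297 ± 30.2) and *Areg* 5.06-fold higher, whereas *Fbn1* (fibrillin 1) was 3.01-fold lower (106 ± 11.3 against 318 ± 32.3). LuM1 cells differed from Colon26 cells in the same direction for *Col3a1* (3.92-fold higher), *Areg* (14.8-fold higher) and *Fbn1* (4.93-fold lower). Among the cell type markers, *Pdgfra*, a growth factor receptor of mesenchymal cells, read 220 ± 22.8 in Colon26, 1282 ± 128 in NM11 and 3940 ± 394 in LuM1 cells. *Cd68*, a lysosomal protein of macrophages, in LuM1 exceeded Colon26 by 30.0-fold (5219 ± 522 against 174 ± 18.3), and *Dazl*, an RNA-binding protein of germ cells, was 45.5-fold higher in LuM1 and 50.2-fold higher in NM11 than in Colon26 cells. These genes were picked with their values known, and each value rests on 1 array per line.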
